A study of Mus musculus with 8 samples.

Results

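Long intergenic noncoding RNAs were followed in CT26 tumors through 2052 array probes, each of which is named after a genomic interval and a strand in place of a gene. CT26 is a mouse colorectal cancer line, and 500000 cells were implanted under the skin of the flank. The mice were then treated for 2 weeks with vehicle, with TP-16 at 75 mg/kg by mouth each day (an antagonist of the prostaglandin E receptor EP4, labelled BY001 in the records), with 50 µg per mouse of an anti-PD-1 antibody injected into the peritoneum, or with both agents, which is called the combination. Whole tumor tissue gave 2 arrays per group and 8 in all, one Cy3-labelled sample on each. The methods name BALB/c mice as hosts, and the samples are called independent biological replicates, while the records do not say whether 1 sample is 1 tumor or a pool.

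The array carries 4447 usable probes named by an interval, and the 2052 followed here carried the scanner's detection mark on both arrays of some group. The mark says that a spot is well above background, and a probe with it is called detected below. The 2052 probes covered 1922 combinations of interval and strand, 1004 probes on the forward strand (F) and 1048 on the reverse strand (R), with a median interval length of 11876 bp and a range from 67 to 533972 bp. All coordinates follow the annotation of the array, mouse build mm9. The names call these regions intergenic, yet a probe of a RefSeq gene lay inside the interval of 274 of the 2052 (13.4%), on the same strand for 148 and on the opposite strand for 150, so the word is kept here only as the name of the probe class.

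Long intergenic noncoding RNAs are transcripts that lie outside protein-coding genes and carry no long open reading frame. Many are spliced, capped and polyadenylated like messenger RNAs. Known ones act on chromatin beside their own site, hold nuclear bodies together, bind proteins or microRNAs, or host small RNAs in their introns, while for most intervals no function has been assigned. Their levels are low in most tissues and differ between cell types, so that the mixture of tumor, immune and stromal cells in a tumor can set which of them are seen. In whole tumors, fewer cells of a type and less RNA per cell cannot be told apart.

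The level of a probe is given throughout as the log2 signal minus the 75th percentile of its array, so that a level of 0 equals that percentile. Levels of different probes depend on their sequences and are not compared as amounts of RNA. Of a single probe or gene, rose and fell mean a limma adjusted p of at most 0.05 at any fold, and a call also needs a 2-fold change. Vehicle replicate 2 stood apart with 2428 interval probes detected, against 1717 to 2028 on the other 7 arrays. TP-16 replicate 2 stood apart at Xist, the noncoding RNA of X inactivation, whose design probe read -7.13 there and -0.68 to 1.16 elsewhere. The 8 arrays shared 1 slide, with vehicle and TP-16 in its first row, anti-PD-1 and the combination in its second, and each group in a pair of neighbouring columns, so that slide row cannot be told apart from antibody nor column pair from TP-16. Immune and blood markers moved with treatment as well: the summed level of 47 interferon-induced genes was 8.36 and 9.79 in vehicle and 10.91 to 11.08 in the combination, and that of 6 red blood cell genes 8.40 and 9.06 against 6.24 and 6.56. What these differences add to the intergenic probes was not tested.

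The probe sequences of the 6 largest rises and the 10 largest falls in the combination, ranked as described with their values, are shown first, because 1 sequence feature returns in the values. Each probe has 60 bases, printed 5′ to 3′ as on the array. The first 6 belong to intervals that rose, in order of their change, and the capitals mark AATAAA, the hexamer of polyadenylation signals, where a probe holds it. They lie at chr14:105510368-105510427, chr8:48484736-48484795, chr6:57612816-57612875, chr10:83225374-83225433, chr7:13541092-13541151 and chr7:111530612-111530671 of mm9.
chr14:105497388-105511063_F: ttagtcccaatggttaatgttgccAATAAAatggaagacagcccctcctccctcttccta
chr8:48476637-48492537_F: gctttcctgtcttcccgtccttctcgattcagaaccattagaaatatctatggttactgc
chr6:57583950-57624216_F: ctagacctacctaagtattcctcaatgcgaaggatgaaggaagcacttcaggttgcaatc
chr10:83185606-83225506_F: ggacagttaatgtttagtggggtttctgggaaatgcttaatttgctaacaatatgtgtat
chr7:13533925-13544525_F: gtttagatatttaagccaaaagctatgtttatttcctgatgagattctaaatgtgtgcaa
chr7:111526943-111545093_R: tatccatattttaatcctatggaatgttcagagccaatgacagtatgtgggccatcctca

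The next 10 are the probes of the falls, again in order. Capitals mark a GA repeat, here the run GAGAGAGA with any further GA units or G that follow it, which 4 of the 10 hold. They lie at chr2:150119606-150119665, chr13:44219663-44219722, chr4:98945330-98945389, chr3:79076237-79076296, chr15:66722885-66722944, chr12:77553108-77553167, chr15:84753447-84753506, chr6:90759754-90759813, chr13:70745414-70745473 and chr4:56018129-56018188.
chr2:150091945-150119782_F: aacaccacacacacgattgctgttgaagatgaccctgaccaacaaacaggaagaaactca
chr13:44217172-44224947_R: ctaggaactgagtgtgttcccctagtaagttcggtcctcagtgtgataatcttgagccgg
chr4:98943050-98959998_R: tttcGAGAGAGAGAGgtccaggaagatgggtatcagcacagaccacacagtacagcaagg
chr3:79075801-79076428_F: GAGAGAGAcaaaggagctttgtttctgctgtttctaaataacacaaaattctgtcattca
chr15:66682293-66722977_F: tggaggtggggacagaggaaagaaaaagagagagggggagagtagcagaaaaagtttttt
chr12:77544397-77564122_F: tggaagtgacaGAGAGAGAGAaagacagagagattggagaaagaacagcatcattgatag
chr15:84737071-84753513_R: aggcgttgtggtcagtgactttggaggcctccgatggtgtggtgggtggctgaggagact
chr6:90745692-90777977_R: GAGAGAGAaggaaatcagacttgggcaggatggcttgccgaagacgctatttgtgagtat
chr13:70745306-70837331_R: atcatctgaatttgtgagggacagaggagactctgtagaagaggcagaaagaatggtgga
chr4:56013597-56020622_R: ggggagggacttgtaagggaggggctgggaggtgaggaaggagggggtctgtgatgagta

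Of the 2052 probes, 1492 were detected on all 8 arrays. Among the rest, 99 were detected on both arrays of vehicle alone, 54 of TP-16 alone, 53 of the combination alone and 22 of anti-PD-1 alone. A further 84 were shared by TP-16 and the combination and by no other group, and 64 by all 3 treated groups but not vehicle. These counts describe the rule that chose the probes and are not a test of it. At the edge of that rule, 51 probes with 2 detected arrays had both in 1 group and entered, and their brightest array had a median level of -3.16. Another 175 with 2 detected arrays in different groups stayed out, and their brightest array had a median of -3.39. The brightest array of the 1492 had a median of -1.22 and reached 9.11.

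**Figure D1:**
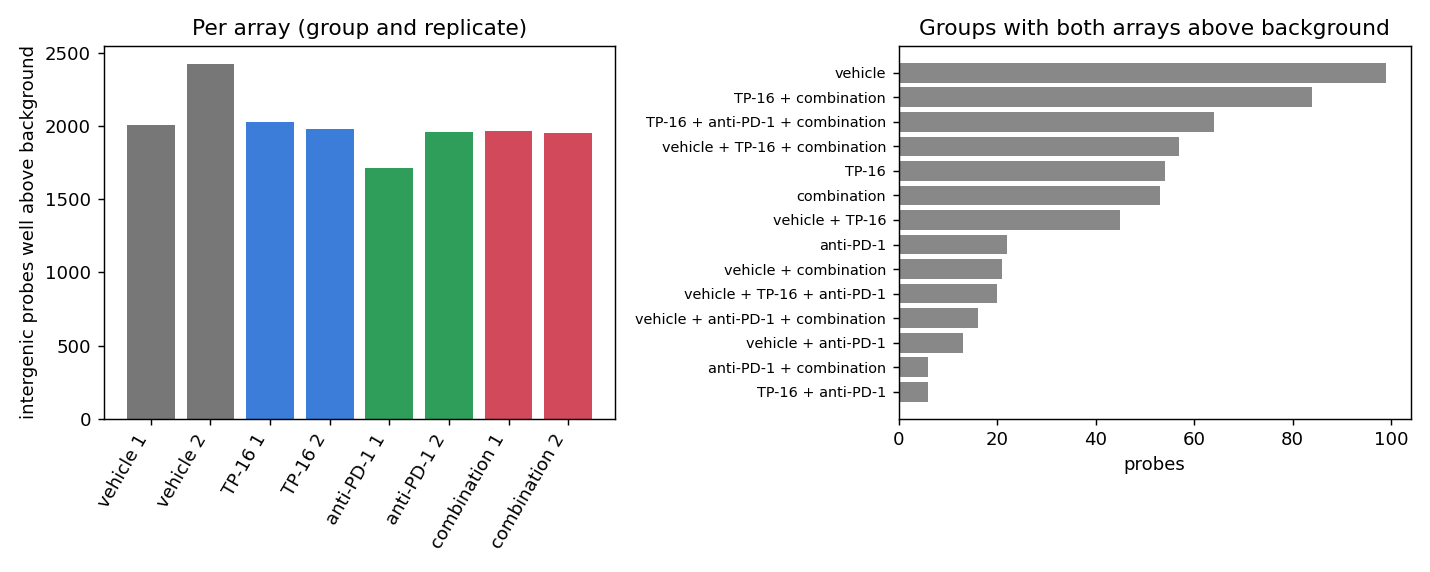
Left, number of interval probes (of 4447) well above background on each of the 8 arrays, with vehicle replicate 2 highest at 2428. Right, number of chosen probes by the groups in which both arrays were well above background, without the 1492 found in all 4 groups; vehicle alone leads with 99.

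Replicates tracked each other less closely for these probes than for the rest of the array. Between the 2 arrays of a group, levels of the chosen probes correlated across probes at 0.945 in vehicle, 0.971 in TP-16, 0.981 in anti-PD-1 and 0.981 in the combination, a description over probes that share each array. The SD of the difference between replicates was 0.80, 0.65, 0.49 and 0.50 in the same order, with vehicle first. Other tested probes had 0.67, 0.51, 0.43 and 0.41. Vehicle, the group against which the treatments were set, was therefore the least reproducible.

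The combination was compared with vehicle to ask how the 2 agents together changed the tumor transcriptome. Intergenic probes were mostly lower: their median log2 change was -0.58, with 82.7% below 0, while the median over all 31912 tested probes was -0.20. With the thresholds of the methods, a change of at least 2-fold and p up to 0.05 before adjustment in limma, 427 of the 2052 were lower (20.8%) and 30 higher (1.46%), 22.3% together. Over all tested probes the same thresholds marked 15.3%, with 9.17% lower and 6.12% higher. After Benjamini-Hochberg adjustment over all tested probes, 348 were lower and 22 higher by at least 2-fold, 18% of the 2052, against 12.5% of all probes tested (7.47% lower and 5.08% higher). Since a probe detected in vehicle only had to be lower in the combination, the 1492 probes detected on all 8 arrays were also counted alone. Of these, 237 were lower and 18 higher at the unadjusted threshold (17.1% together, 15.9% lower and 1.21% higher). Of the 25191 other probes detected everywhere, 11.7% were called (6.43% lower and 5.3% higher).

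The sign of this shift depended on the scale, while its position below the other probes was also found with quantile normalization. With quantile normalization the median of the intergenic probes was -0.29 and that of all probes -0.01, and with no scaling the direction turned, at 0.26 and 0.63. The intergenic probes lay below all probes by 0.37 on the main scale and by 0.27 under quantile normalization. Without scaling the 0.37 is the same by construction, since the main scale takes 1 constant from each array. At the unadjusted threshold, 6.56% of the called probes were higher under the 75th percentile. The share was 26.2% under quantile normalization (82 higher, 231 lower) and 70.7% unscaled (215 higher, 89 lower). RefSeq noncoding RNA probes, 895 of them, had a median of -0.56 on the main scale and RefSeq mRNA probes -0.11. Leaving out combination replicate 2 took the adjusted calls from 370 to 0 and the unadjusted ones to 285, leaving out vehicle replicate 2 left 223 adjusted calls, and a fit of the vehicle and combination arrays alone gave 0 adjusted calls.

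**Figure D2:**
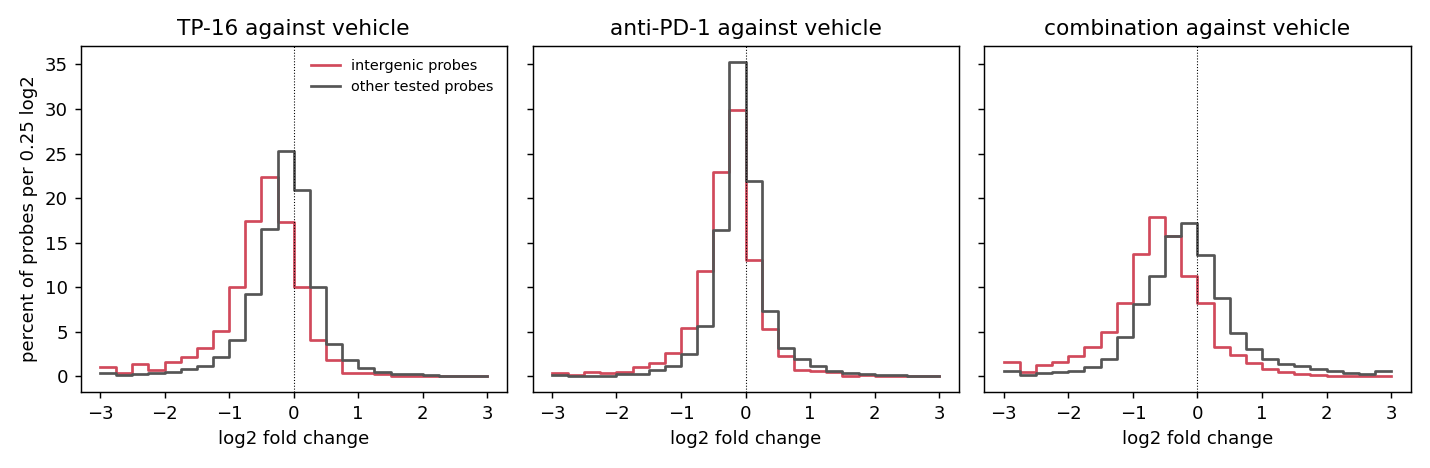
Distribution of log2 fold changes against vehicle (percent of probes per bin of 0.25) for the 2052 intergenic probes and the 29860 other tested probes, in 1 panel for each treated group (TP-16 first, the combination last). The intergenic probes lie to the left of the others in each panel, with medians of -0.43, -0.23 and -0.58.

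Rises and falls are ranked by fitted change among probes past the adjusted threshold, with both combination arrays beyond both vehicle arrays and an array detected in each of the 2 groups. By these terms 17 rises (0.828% of the 2052) and 266 falls (13%) qualified, against 4.16% and 6.08% of all tested probes, and at most 1 probe per 100 kb was named. Among the rises, the largest was at chr14:105497388-105511063_F, where Gm17066, a noncoding gene, has its probe inside the interval on the other strand. Its level was 0 and 1.54 in vehicle, 2.39 and 2.48 in TP-16, 2.06 and 1.78 in anti-PD-1 and 2.82 and 3.67 in the combination. All 6 treated arrays were above both vehicle arrays, and the combination changed by 2.47 ± 0.53 (SE, n = 2 arrays per group, limma adjusted p = 0.0214). Gm17066 itself read 0.21 and 0.18 in vehicle and 0.31 and 0.24 in the combination.

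The interval chr8:48476637-48492537_F had an estimated change of 0.05 with TP-16 alone. It read 3.46 and 4.18 in vehicle, 4.73 and 3.02 in TP-16, 4.66 and 4.53 in anti-PD-1 and 5.68 and 6.22 in the combination. Only the combination stood clear of all other groups, at 2.13 ± 0.57 over vehicle (limma adjusted p = 0.0379). Its nearest gene probe, of the vesicle tethering factor Trappc11, was 83515 bp away and changed by 0.29 ± 0.11 (adjusted p = 0.0898).

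At chr6:57583950-57624216_F the level was 0.15 and 0.72 in vehicle, 1.70 and 1.72 in TP-16, 1.87 and 1.62 in anti-PD-1 and 2.18 and 2.36 in the combination, a change of 1.83 ± 0.21 in the combination (limma adjusted p = 0.0102). The 3 treated groups did not overlap vehicle. In the same stretch, chr6:57560819-57569928_F, named after its values were seen, holds the probe of Herc6, an interferon-induced ubiquitin-type ligase, on its own strand. This interval read -4.01 and -4.05 in the combination and was not detected in vehicle, where the lowest detected levels were -4.08 and -3.82, so no rise is shown, while Herc6 rose by 1.26 ± 0.27 (adjusted p = 0.0213). The gene probe nearest to chr6:57583950-57624216_F, of Pyurf on the opposite strand, was detected on 4 of 8 arrays and read -3.63 and -3.81 in vehicle and -4.55 and -4.90 in the combination.

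At chr7:111526943-111545093_R, which lies 15077 bp from Trim30a on the same strand, the replicates were the tightest of the rises. The level was -0.18 and 0.02 in vehicle, 1.04 and 1.11 in TP-16, 0.90 and 0.75 in anti-PD-1 and 1.33 and 1.60 in the combination. It rose by 1.54 ± 0.14 (limma adjusted p = 0.0102), 2.91-fold, and Trim30a, an interferon-induced member of the tripartite motif family, rose by 0.78 ± 0.22 (adjusted p = 0.0451). The interval chr1:175660642-175671878_R, 5769 bp from the interferon-inducible gene Ifi204, rose by 1.21 ± 0.22 (adjusted p = 0.0156), from -1.68 and -1.03 to -0.21 and -0.08, beside a rise of 0.60 ± 0.12 for Ifi204. A second probe of that interval changed by 0.25 ± 0.12 and did not pass (adjusted p = 0.161).

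A pair of probes for chr1:85304494-85305390_R, an interval of 897 bp, gave the same picture in all 3 treated groups. The first read -1.47 and -1.16 in vehicle, 0.20 and -0.78 in TP-16, -0.01 and -0.34 in anti-PD-1 and -0.06 and 0.14 in the combination, and the second changed by 1.20 ± 0.25 where the first changed by 1.35 ± 0.33 (limma adjusted p = 0.0194 and 0.0301). All treated arrays were above vehicle for both. The other rises among the 10 largest were chr10:83185606-83225506_F (1.68, from -3.73 and -3.43 to -2.13 and -1.68), chr7:13533925-13544525_F (1.57, with the zinc finger gene Zfp324 at 0.93), chr14:77042348-77042645_R (1.49) and chr15:59130091-59131239_R (1.42). The probes of chr14:77042348-77042645_R disagreed, since a second one fell by 1.44 ± 0.19 (limma adjusted p = 0.0102), from -1.41 and -0.99 to -2.46 and -2.82. Serp2, whose gene probe is the nearest to it, fell by 1.20 ± 0.18 (adjusted p = 0.0111).

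**Figure D3:**
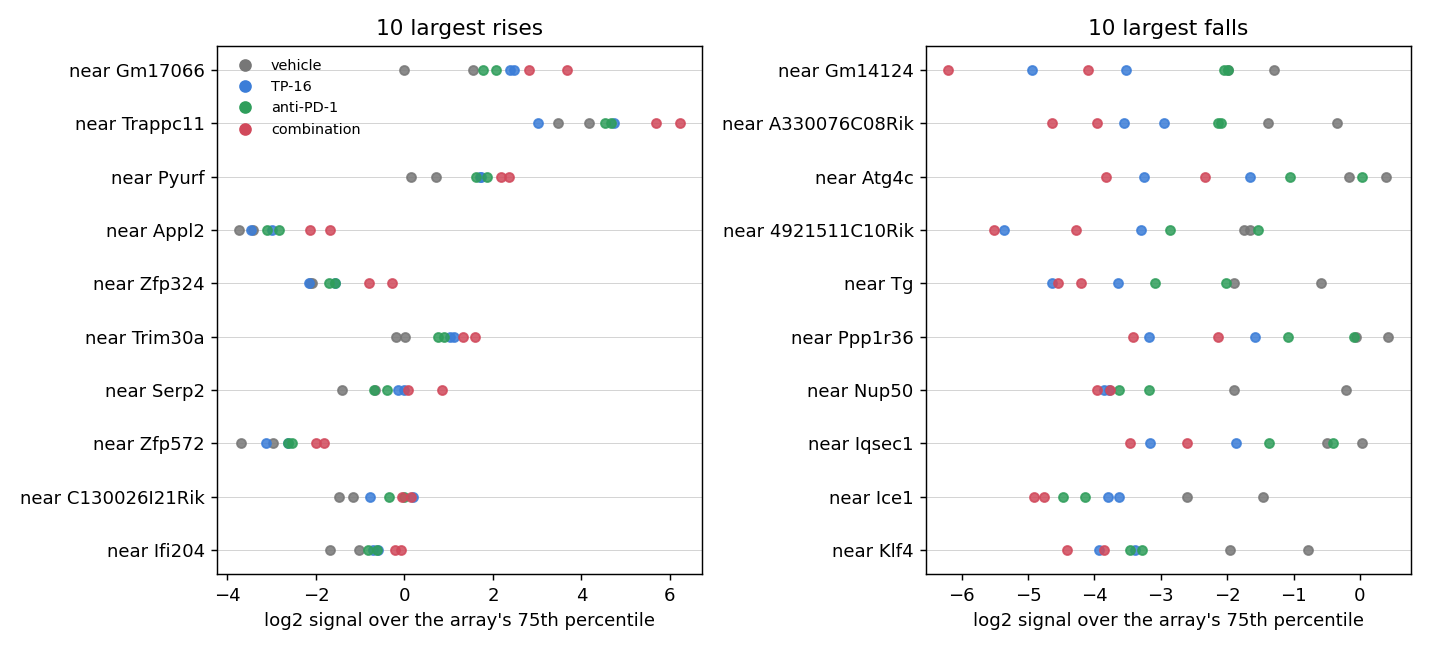
Level of the 10 largest rises (left) and 10 largest falls (right) in the combination on each of the 8 arrays, as log2 signal over the 75th percentile of the array; each row is 1 probe, labelled by its nearest gene probe, and each point is 1 array coloured by group. Both combination arrays lie beyond both vehicle arrays in every row, and TP-16 arrays lie near the combination in most of the falls.

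The fall with the largest fitted change was at chr2:150091945-150119782_F, with the gene Gm14124 inside the interval on the same strand. Its level was -1.30 and -1.98 in vehicle, -3.53 and -4.94 in TP-16, -1.99 and -2.05 in anti-PD-1 and -4.09 and -6.20 in the combination. Anti-PD-1 arrays were close to vehicle, while both groups given TP-16 were lower, and the combination changed by -3.51 ± 0.78 (limma adjusted p = 0.0232). On combination replicate 2 and TP-16 replicate 2 the probe was not detected, and the bound in the combination is a fall of at least 7.33-fold, less than the 10.8-fold of the next interval. Gm14124 changed by -0.20 (adjusted p = 0.421).

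At chr13:44217172-44224947_R the groups were ordered from vehicle through anti-PD-1 and TP-16 to the combination. The level was -1.38 and -0.35 in vehicle, -2.13 and -2.09 in anti-PD-1, -3.55 and -2.95 in TP-16 and -3.96 and -4.64 in the combination, a fall of 3.43 ± 0.41 on the log2 scale (10.8-fold, limma adjusted p = 0.0102), with all 8 arrays detected and no overlap between any pair of neighbouring groups in that order. The difference between the combination and either single agent missed the adjusted threshold. Next to Tg, the thyroglobulin gene, chr15:66682293-66722977_F went from -1.89 and -0.59 in vehicle to -4.20 and -4.55 in the combination (-3.14 ± 0.58, adjusted p = 0.0157), with TP-16 at -3.65 and -4.64. The Tg probe, 156 bp away on the same strand, changed by 1.57 ± 0.87 and did not pass (adjusted p = 0.205).

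At 3 further falls all treated arrays, single agents included, lay below both vehicle arrays. The interval chr15:84737071-84753513_R, near the nucleoporin gene Nup50, read -0.21 and -1.89 in vehicle and between -3.17 and -3.96 on all 6 treated arrays. The interval chr4:56013597-56020622_R, whose nearest gene probe is that of the transcription factor Klf4 at 472705 bp, read -1.96 and -0.78 in vehicle and -3.28 to -4.41 on the treated arrays. The interval chr13:70745306-70837331_R, near Ice1 of the little elongation complex, read -1.46 and -2.61 in vehicle and -3.63 to -4.91 with treatment. Their changes in the combination were -2.81 ± 0.52, -2.77 ± 0.43 and -2.80 ± 0.37 (limma adjusted p = 0.0155, 0.0113 and 0.0102), the last with 1 combination array not detected and a bound of at least 6.26-fold. At chr13:70745306-70837331_R the combination was lower than TP-16 by an estimated 1.12 ± 0.37, which did not pass after adjustment. At each of these intervals the vehicle arrays lay farther apart than the arrays of any treated group.

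Of the 10 largest falls, 4 have probes that hold a GA repeat. At chr4:98943050-98959998_R the level was -0.16 and 0.40 in vehicle, 0.03 and -1.06 in anti-PD-1, -1.65 and -3.25 in TP-16 and -2.34 and -3.82 in the combination. At chr12:77544397-77564122_F it was -0.06 and 0.43, then -0.09 and -1.08, -1.58 and -3.17, and -2.14 and -3.41. In both, replicate 2 was the lower array in each treated group, and anti-PD-1 replicate 1 stood close to the vehicle arrays. At chr6:90745692-90777977_R vehicle read -0.50 and 0.03 and the combination -2.61 and -3.47, and at chr3:79075801-79076428_F vehicle read -1.75 and -1.65 and the combination -4.28 and -5.51, the second not detected (at least 7.49-fold lower). The changes were -3.20, -2.96, -2.81 and -3.19, with limma adjusted p of 0.0253, 0.0256, 0.0185 and 0.0321, on 4 chromosomes.

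That repeat was then searched in every probe, a search chosen after the values were seen. The run GAGAGAGA, read on the printed strand, was in 15 of the 2052 probes (0.731%) and in 116 of the other 29860 tested probes (0.388%). Of the 15, 11 were called lower in the combination at the unadjusted threshold (73.3%), against 20.4% of the intergenic probes without it. The median change of the 15 was -2.52 against -0.57. The falls that prompted the search are among these 11, so the share and the median partly repeat that observation. The median level of the 15 was -0.16 and 0.32 in vehicle, -0.09 and -1.06 in anti-PD-1, -1.58 and -2.64 in TP-16 and -1.76 and -3.14 in the combination. Among the other 116 the median change was -1.32 against -0.18 without the run, with 48.3% lower against 8.21%. The opposite strand of the same repeat, TCTCTCTC, was in 18 intergenic probes with a median of -0.72 against -0.58, and in 94 others with -0.63 against -0.18. Quantile normalization left the 15 at -2.43. Simple repeats of this kind occur in transcripts of many loci, so the signal of these probes and that of the named intervals cannot be told apart.

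The base composition of the probes moved with the change as well. Intergenic probes had a median GC content of 45% and other probes kept 41.7%. In the combination the median change of intergenic probes with at most 35% GC was -0.12 (191 probes), and it was -0.51, -0.68 and -0.78 with 35 to 45%, 45 to 55% and 55 to 65% GC. Other tested probes followed the same order from -0.06 through -0.16 and -0.34 to -0.61. Above 65% GC both were alike, at -0.75 for 68 intergenic and -0.78 for 144 other probes. In each bin up to 65% GC the intergenic median was the lower of the 2 on the main scale. Under quantile normalization it was the higher in the lowest bin, at 0.24 against 0.11. The hexamer AATAAA was in 4.48% of the intergenic probes and in 11.3% of other tested probes, and the 92 intergenic probes that hold it had a median change of -0.36 against -0.58 without it. Its reverse complement TTTATT was in 2.73% and 3.84%, with a median of -0.25 in the 56 intergenic probes.

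**Figure D4:**
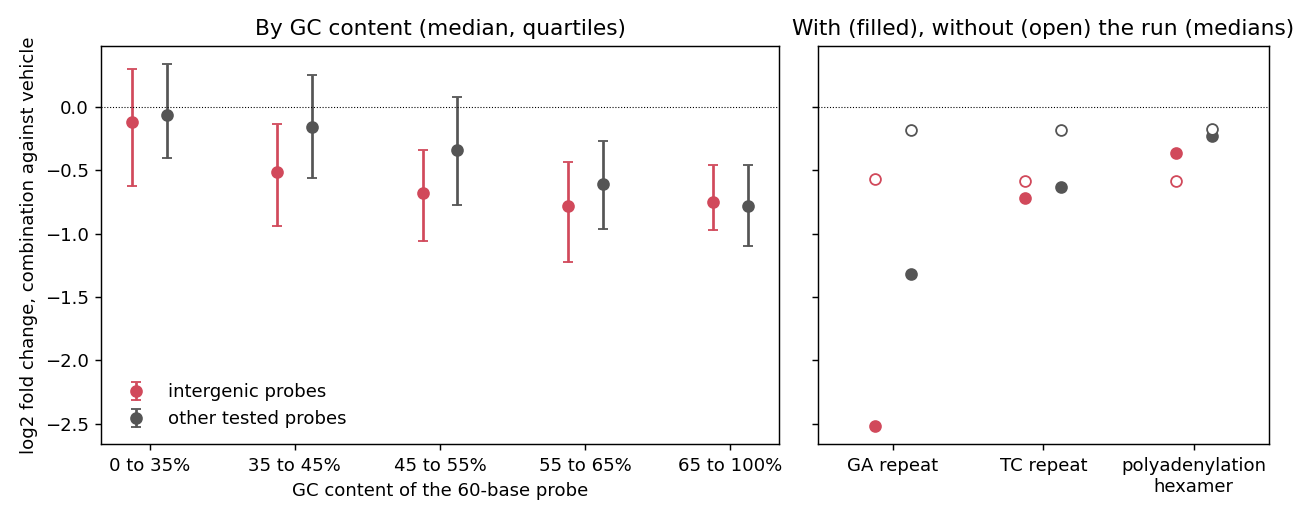
Log2 fold change of the combination against vehicle by probe sequence. Left, median (point) and quartiles (bars) in bins of probe GC content for the 2052 intergenic and 29860 other tested probes, both falling from the lowest bin (-0.12 and -0.06) toward the 55 to 65% bin (-0.78 and -0.61). Right, medians of probes with (filled) and without (open) the GA repeat, its reverse complement and the polyadenylation hexamer, in the same colours; the 15 intergenic probes with the GA repeat lie at -2.52.

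By brightness, the median of intergenic probes on the main scale was below that of other probes in every bin of mean level. The medians were -0.86 against -0.41 at or below a level of -4 (362 intergenic probes) and -0.49 against -0.26 above a level of 2 (167 intergenic probes). The median change of the intergenic probes was negative on every autosome and on X.

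For some intervals the signal crossed the detection limit, so that only a bound on the fold can be given. The bound sets the mean of the group that is detected against the lowest level still marked as detected on each array of the other group, or the probe's own level where that is higher. In vehicle but on neither combination array, 88 probes were detected. For this count and that of the other direction, the share over all tested probes is not given. Vehicle replicate 2 had 59.7% of all probes detected, the other arrays 51.4 to 56.7%. At chr5:113920850-113950200_F vehicle read -0.40 and -2 and no treated array was detected, at least 11.9-fold lower in the combination, a description, since the probe entered only through vehicle. Its nearest gene probe, of Wscd2 on the same strand 89396 bp away, rose by 1.98 ± 0.35. At chr3:106858397-106896812_R the combination was at least 8.53-fold lower (adjusted p = 0.0163), with anti-PD-1 still detected at -2.17 and -3.75. At chr9:78367773-78374723_F, chr5:74340084-74346709_F and chr15:82036791-82037660_R it was at least 7.56-fold, 6.56-fold and 6-fold lower, the first again a probe that entered only through vehicle.

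In the other direction 66 probes were detected on both combination arrays and on no vehicle array, all with small bounds. The largest were at chr9:65368908-65377592_R, at least 1.66-fold higher (-3.41 and -3.03 in the combination), and at chr19:60220577-60238494_F, at least 1.60-fold higher (-3.58 and -2.96). The first did not pass the adjusted threshold (limma adjusted p = 0.103), and the second entered only through the combination and is given as a description. At chr16:93121505-93142255_R, at least 1.33-fold higher, the adjusted p was 0.0218, with levels of -4.57 and -4.34 in vehicle and -3.71 and -3.37 in the combination. Another interval seen in vehicle alone, chr15:102994998-102995947_R, was chosen after its values were seen and has a pair of probes, and both read lower in the combination, from -1.29 and -3.27 to -6.92 and -7.23 at one and from -2.82 and -2.41 to -5.80 and -6.24 at the other.

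TP-16 alone was compared with vehicle to separate the EP4 antagonist from the antibody. The median change of the intergenic probes was -0.43, that of all probes -0.12. At the unadjusted threshold 228 were lower and 12 higher, 11.7%, against 6.18% of all tested probes (4.61% lower and 1.57% higher). Among the 1492 detected everywhere it was 6.03% (5.76% lower and 0.268% higher). Other probes detected everywhere had 3.19% (2.01% lower and 1.18% higher). Under quantile normalization the call was 96 lower and 49 higher, with medians of -0.14 and 0.04, and without scaling the median was 0.10 against 0.41. After adjustment 3 of the 2052 were called, all lower (0.0533% of all tested probes were called, 0.0501% lower and 0.00313% higher). Leaving out vehicle replicate 1 gave 380 unadjusted calls and 115 adjusted ones, leaving out vehicle replicate 2 gave 23 adjusted ones, and leaving out any other array gave 0.

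The 3 adjusted calls, named after their values were seen, were detected on the vehicle arrays and nowhere else, so they entered only through the group where they are high and are given as a description. They were chr15:32167516-32174427_F, which holds Snhg18 on its other strand, at least 3.14-fold lower, chr6:118250184-118258737_R, at least 4.86-fold lower, and chr8:60132300-60146830_F, at least 2.01-fold lower. Among the 1492 probes detected everywhere 0 were called after adjustment with TP-16. The first read -2.95 and -3.21 in vehicle and -5.33 to -6.21 on the treated arrays. Of the rises, the 5 largest with no overlap included the intervals near Trim30a (1.16 ± 0.14, adjusted p = 0.0590), Pyurf (1.27 ± 0.21, adjusted p = 0.0790) and C130026I21Rik (1.02 ± 0.33), none past the adjusted threshold. A further one, chr17:32948750-32967925_F, with Zfp799 on the other strand inside it, read -3.59 and -3.92 in vehicle and -2.29 to -2.77 on all treated arrays. The interval chr1:195327945-195336595_F read -3.49 and -1.83 in vehicle and -4.38 and -7.07 in TP-16, the last not detected (at least 3.91-fold lower), a description, since it too entered only through vehicle. The interval near Tg, chr15:66682293-66722977_F, was 7.51-fold lower with TP-16 (adjusted p = 0.0898).

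Anti-PD-1 moved the intergenic probes least. The median was -0.23 against -0.10 over all tested probes, with 109 lower and 11 higher at the unadjusted threshold, 5.85%, against 3.83% of all tested probes (2.16% lower and 1.67% higher). Among the 1492 detected everywhere the share was 1.88%, against 1.70% of other probes detected everywhere. By direction they differed, with 1.47% lower and 0.402% higher, against 0.421% and 1.27% of the other probes. Over the 2052, quantile normalization gave 61 lower and 39 higher. The split moved with other settings too: normexp background correction left 8 lower and 5 higher, and without vehicle replicate 2 the calls were 60 lower and 29 higher, while without vehicle replicate 1 they were 261 lower and 24 higher. After adjustment 2 were called, both lower (0.0721% of all tested probes were called, 0.0439% lower and 0.0282% higher), chr15:32167516-32174427_F and chr6:118250184-118258737_R, both also among the TP-16 calls, which rest on the same vehicle arrays. Both entered only through vehicle, and among the 1492 detected everywhere 0 were called. Without vehicle replicate 1 there were 21, without vehicle replicate 2 13, and without any other array 0.

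Falls with anti-PD-1 included chr15:84737071-84753513_R (-2.35) and chr4:56013597-56020622_R (-2). At chr13:70745306-70837331_R, with an anti-PD-1 array not detected, the level was at least 4.01-fold lower. None passed the adjusted threshold (limma adjusted p = 0.241, 0.241 and 0.196). The 5 largest rises with anti-PD-1 lay at chr6:57583950-57624216_F (1.31), chr17:32948750-32967925_F (1.29) and 3 intervals of chromosome 1, the last of which has the interferon-induced nuclear body gene Sp110 as its nearest gene probe. These 3 were chr1:85304494-85305390_R (1.17) and the pair chr1:85117750-85129200_F (1.18 ± 0.34) and chr1:87343550-87362900_F (1.16 ± 0.33), none past the adjusted threshold (limma adjusted p = 0.241, 0.277 and 0.277). The pair gave almost the same values, 1.90 and 2.91 against 2.02 and 3.02 in vehicle and 3.63 and 3.54 against 3.75 and 3.61 in anti-PD-1. Their probes share a run of 37 bases, shown in capitals, so that their signals cannot be told apart. A second probe of chr1:85117750-85129200_F, without that run, read -3.13 and -3.52 in vehicle and -4.04 and -3.25 in anti-PD-1. They lie at chr1:85120161-85120220 and chr1:87351659-87351718.
chr1:85117750-85129200_F: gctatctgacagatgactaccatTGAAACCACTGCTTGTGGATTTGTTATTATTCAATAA
chr1:87343550-87362900_F: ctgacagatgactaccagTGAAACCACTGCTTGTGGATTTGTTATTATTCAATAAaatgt

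No intergenic probe passed the adjusted threshold in limma between the combination and TP-16, between the combination and anti-PD-1, or for the departure from additivity, which is the combination minus both single agents plus vehicle. Without adjustment and at any fold, p was at or under 0.05 for 326, 588 and 158 of the 2052 (15.9%, 28.7% and 7.7%), against 22.3%, 26.2% and 7.32% of all tested probes. With the fold of 2 there were 42 (2.05%, 14 higher and 28 lower) against TP-16, where 4.34% of all tested probes were called (3.52% higher and 0.821% lower), 106 (5.17%, 13 higher and 93 lower, or 0.634% and 4.53%) against anti-PD-1, where 4.27% were (2.3% higher and 1.97% lower), and 68 (3.31%, 59 higher and 9 lower) for the departure, where 3.2% were (2.67% higher and 0.536% lower). After adjustment 0% of all tested probes were called against TP-16, 0.0157% against anti-PD-1 and 0% for the departure. The median changes were -0.14, -0.33 and 0.08, against -0.08, -0.10 and 0.01 over all tested probes. Under quantile normalization the median departure turned to -0.07. These comparisons share arrays with each other and with those against vehicle.

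Some intervals have several probes. Of 116 combinations of interval and strand with at least 2 probes, 97 had changes of 1 sign in the combination, in a set where 82.7% of all changes were below 0, and the median difference between probes of a pair was 0.325. The 3 probes of chr6:116123643-116124550_F fell by 0.70, 0.69 and 0.65, each with an SE of 0.13 or 0.12. They read 7.32 and 7.29, 7.81 and 7.84, and 7.91 and 7.91 in vehicle. Matches to messenger RNAs were sought only among the gene probes of the array, so other matches of these probes were not tested. At chr1:175654606-175672031_R, near Ifi204, the 3 probes rose by 0.90, 0.63 and 0.53 (limma adjusted p = 0.0103, 0.0141 and 0.0195). The probe at 0.53 shares a run of at least 20 bases with a gene probe, so there the interval and the gene cannot be told apart. The 3 probes of chr5:96591892-96606467_F stayed between 0.07 and 0.18 and did not pass. At chr12:55844075-55898175_R, which holds the probe of the sorting nexin gene Snx6, the probes read -3.67 to 4.87 in vehicle replicate 1. Of the 3, 1 probe passed the limma adjusted p, with a change under 2-fold (-0.44 ± 0.12, adjusted p = 0.0415). A probe of chr5:96591892-96606467_F (0.07) and a probe of chr12:55844075-55898175_R (0.06) also share such a run with a gene probe.

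Both strands were probed at 830 intervals. Both strands had chosen probes at 262, 1 strand had at 369 and neither had at 199. At 205 of the 262 the changes of both strands in the combination had 1 sign and at 57 opposite signs, where again most changes of either strand were below 0. At chr11:22681800-22707775_R the probe read 8.84 and 8.79 in vehicle and that of the F strand 2.01 and 2.29, and both fell, by 0.95 and 0.72. The probe with the highest signal is named chr7:108209996-108216032_R, but like 24 of the 2052 in all it has no annotated position inside its interval. It went from 9.11 and 9.07 in vehicle to 8.25 and 7.99 in the combination (-0.97 ± 0.12, limma adjusted p = 0.0102). It shares 28 bases with a probe of the ribosomal protein gene Rps29, which changed by -0.87. At chr14:78924115-78938125_F (83.3% GC), chr12:73838608-73862621_F (80% GC) and chr6:116092274-116144199_F (88.3% GC) the bright probes fell by 0.73, 0.95 and 0.58.

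At some places probes of opposite strands overlap. At chr6:116123819-116123895 the F and R probes are complementary over 43 bases, in capitals. The F probe read 7.32 and 7.29 in vehicle and the R probe, from an interval that spans it, 1.5 and 1.66, and they fell by 0.70 and 0.81. At chr15:78411942-78412033, 28 bases are complementary. There the F probe read -3.53 and -2.56 in vehicle and the R probe 1.18 and 1.53, and they fell by 1.43 ± 0.33 and 1.24 ± 0.16 (limma adjusted p = 0.0259 and 0.0102). The sequences show the complementary runs.
chr6:116123643-116124550_F: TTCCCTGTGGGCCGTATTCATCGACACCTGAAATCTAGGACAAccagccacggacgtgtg
chr6:116092274-116144199_R: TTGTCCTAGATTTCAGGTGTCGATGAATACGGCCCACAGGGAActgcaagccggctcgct
chr15:78403377-78412545_F: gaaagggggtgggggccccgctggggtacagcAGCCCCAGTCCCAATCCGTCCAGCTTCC
chr15:78404840-78412046_R: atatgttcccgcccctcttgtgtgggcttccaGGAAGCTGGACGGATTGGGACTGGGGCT

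Some intergenic probes share sequence with probes of genes. A run of at least 20 bases in the same sense was found for 34 of the 2052, and in either sense for 83. The probe of chr9:88575075-88611650_R shares 50 bases with that of Mthfs, an enzyme of folate metabolism, and they changed by 0.10 and 0.17. That of chr12:82495575-82516300_F shares 24 bases with the heat shock protein gene Hspe1, at -0.92 and -0.89. That of chr15:61984389-62102500_F shares 28 bases with the noncoding RNA Pvt1, at -0.71 and -0.93. For these probes the interval and the gene cannot be told apart.

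The nearest gene probe on the array was taken for each interval, and distances run from the interval to that probe, not to the gene body. Where a gene probe lay inside the interval on the same strand, the changes of the 116 intervals and genes in the combination correlated at Pearson's r of 0.333 and Spearman's rho of 0.301, a description across genes that share arrays. Inside on the opposite strand r was 0.0779 (100 pairs), within 10 kb on the same strand 0.171 (272 pairs), and from 10 to 100 kb on the same strand 0.0192 (392 pairs). Of the 427 probes called lower at the unadjusted threshold, 15 had a tested gene probe inside on the same strand. By that threshold 4 of these genes were lower, where 17 of all 116 such genes were (14.7%) and 5.88% of all tested gene probes. Inside on the opposite strand it was 5 of 24, where 13 of 100 genes were lower, and within 10 kb on the same strand 7 of 47, where 19 of 272 were (6.99%). Within 10 kb on the opposite strand it was 0 of 36.

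**Figure D5:**
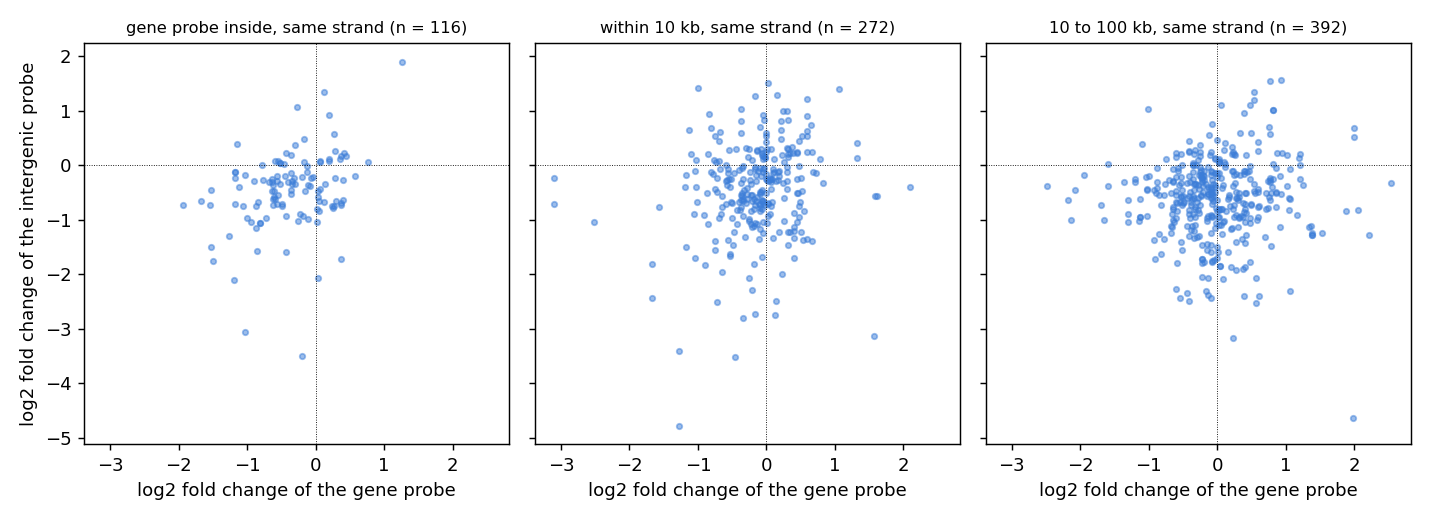
Log2 fold change in the combination against vehicle of each intergenic probe (vertical) and of its nearest gene probe on the same strand (horizontal), 1 point per interval probe, by distance. The cloud with the gene probe inside the interval leans upward (r of 0.333 over 116 pairs), and those within 10 kb (0.171) and from 10 to 100 kb (0.0192) less so.

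Intervals within 100 kb of immune genes were listed next, with gene lists chosen for this tissue. Calls of intervals here use the unadjusted threshold. Near interferon-induced genes 20 intergenic probes had a median change of 0.24 in the combination, 1 of them called higher and 0 lower, against -0.58 over all 2052, of which 1.46% were called higher and 20.8% lower. Near genes of cytotoxic T and NK cells 13 probes had a median of 0.03 (0 higher, 2 lower), near chemokines and their receptors 10 had -0.72 (0 higher, 4 lower), and near prostaglandin genes 6 had -0.49 (0 higher, 1 lower). Of the genes themselves, 36 of 47 interferon genes, 18 of 35 cytotoxic genes, 16 of 38 chemokine genes and 6 of 19 prostaglandin genes were called higher after adjustment, against 5.08% of all tested probes, and 3 chemokine genes were called lower. The positions of intervals near 1 gene overlap, so these probes are not independent.

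Next to some genes that rose, intervals moved the other way. Those past the unadjusted threshold were named first, and of all 2052 probes 20.8% were called lower and 1.46% higher. The opposite direction is therefore given largely by that choice. The interval chr9:102891041-102907200_F, 6479 bp from a probe of the prostaglandin transporter Slco2a1, read -1.27 and -1.28 in vehicle, -1.95 and -2.15 in TP-16, -1.43 and -1.51 in anti-PD-1 and -2.12 and -2.68 in the combination (-1.13 ± 0.20, limma adjusted p = 0.0138). It was lower in both groups given TP-16, while Slco2a1 rose by 1.1 ± 0.13. Near Il2rb, a receptor chain for interleukin-2 and interleukin-15 that rose by 2.08 ± 0.57, the complementary pair on chromosome 15 shown above fell. Near Ccr7, the lymph node homing receptor, which rose by 1.82 ± 0.22, chr11:99048975-99062425_F changed by -1.94 ± 0.67 and did not pass (adjusted p = 0.0721). Its vehicle arrays were far apart, at -1.39 and -3.50.

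Near Cxcr2, a neutrophil chemokine receptor, both strands of chr1:74084292-74138492 had a probe. The R probe read -3.87 and -3.23 in vehicle and was not detected in the combination, at least 2.33-fold lower (limma adjusted p = 0.0181). The F probe read 1.76 and -0.28 in vehicle and -0.78 and -2.71 in the combination and did not pass (-2.49 ± 0.99, adjusted p = 0.104), and it shares a run of 21 bases with a probe of Plekha6. Near Ccl24, an eosinophil chemokine, chr5:136129679-136148860_R fell by 1.23 ± 0.32 (adjusted p = 0.0350). Intervals inside or next to Cd247, the T cell receptor zeta chain, and Isg15, an interferon-induced ubiquitin-like protein, changed by 0.03 ± 0.14 and 0.24 ± 0.47 and did not pass.

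Intervals were also grouped by position. Those less than 100 kb apart formed 1058 loci, of which 215 held at least 3 intervals. Of these, 11 had at least 3 probes called lower at the unadjusted threshold. Since 427 of the 457 called probes were lower, a shared direction within a locus is given largely by that share. Those named here were chosen after their values were seen. At chr5:149931140-149995639, beside Uspl1, a nuclear protein gene, 3 of 3 probes fell. The probe of chr5:149947200-149979950_F went from 3.27 and 3.79 in vehicle through 2.44 and 2.70 in TP-16 and 2.92 and 2.86 in anti-PD-1 to 1.69 and 1.23 in the combination (-2.07, limma adjusted p = 0.0102), with each group apart from vehicle. At chr1:134167181-134248506, beside Lemd1 and Tmcc2, 4 of 5 probes were called lower at the unadjusted threshold, and the changes of all 5 ran from -0.90 to -2.17. At chr13:112648658-112733330, beside Gm15326, all 3 fell by 1.12 to 1.43.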

How the data were processed

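Total RNA of whole CT26 tumors from 4 groups of 2 samples was hybridized to 8 one-colour Agilent mouse arrays on 1 slide. The deposited intensities are the scanner files of the authors, read with Feature Extraction 10.7.1.1, whose processed signal is already background-corrected by that software. The authors also deposited log2 values of the same arrays, which share 1 median (5.17) and 1 75th percentile (8.92) and were used as an alternative. The methods analysed them in GeneSpring with Student's t-test.

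The level used here is log2 of the processed intensity, less the same for the 75th percentile of its array (intensities of 371.1 to 733.6). Control spots and 38 of 56605 probes with outlier marks were left out, spots of a probe were averaged, and the 31912 probes detected on both arrays of some group were tested. No spot was saturated. The number of arrays, 2 per group, limits the precision. All 8 arrays were fitted together with limma 3.58.1 in R 4.3.3 (4 residual degrees of freedom), with Benjamini-Hochberg adjusted p over all tested probes. The fit was tested on simulated data.

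Gene probes were named through RefSeq accessions, and the nearest one to each interval was taken by array coordinates. Intervals were named from the 10 largest rises and falls for the combination and from the 5 largest for each single agent. They were probes past the threshold whose 2 groups do not overlap and each have a detected array, at most 1 per 100 kb. For the single agents the unadjusted threshold was used, since fewer than 5 passed after adjustment. Others came from the 5 largest bounds in each direction and the 5 brightest intervals with 3 or more probes and with both strands. Further ones came from 10 intervals near listed genes, those past the unadjusted threshold first and then by distance. Not every interval of these sets is given. The members and lists were chosen with earlier results of these data known, and the searches for the GA repeat and for shared runs of bases were chosen after the values were seen. The alternatives tried were normexp correction (offset 50) of the raw intensities, quantile scaling, other filters, a fold of 1.5, a replicate block, the methods' t-test and leaving out each array.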

Additional observations from a re-analysis of the deposited data

How the results depend on the processing

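Counts of called probes are given first for TP-16, then anti-PD-1, then the combination, each set against vehicle. Before adjustment they were 240, 120 and 457. A fold of 1.5 gave 539, 237 and 896, normexp background correction 88, 13 and 247, probes detected on all 8 arrays 95, 28 and 260, and the methods' t-test 61, 38 and 204. Quantile normalization and the log2 values of the authors gave 145 for TP-16, and unscaled signals, an alternative chosen after seeing the data, 134 for TP-16 and 304 for the combination, with medians turned to 0.10 and 0.26. After adjustment, from 3, 2 and 370 calls, quantile normalization and the authors' values gave 6, 0 and 221, normexp 66, 0 and 239, no filter on dim probes 0, 0 and 220, probes detected on all 8 arrays 10, 0 and 233, and a trended and robust prior 45, 0 and 372. The methods' t-test and a fit of only the groups compared gave 0, 0 and 0, and the fold of 1.5 gave 710 for the combination. Against TP-16 the combination had 6 calls with the trended prior. Against anti-PD-1 it had 38 with normexp, 23 on all 8 arrays and 31 with the trended prior. The causes were not tested.

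Leaving out 1 array at a time gave 169 to 380, 89 to 285 and 285 to 605 unadjusted calls. After adjustment it gave 0 to 115, 0 to 21 and 0 to 511, and 0 to 1 both for the combination against TP-16 and for the departure from additivity. With the replicate number as a block, adjusted calls were 0, 0 and 357 and unadjusted ones 263, 122 and 469. Over the intergenic probes, replicate differences correlated at 0.491 between vehicle and TP-16, 0.392 between vehicle and the combination and 0.496 between TP-16 and the combination, but at -0.118 to -0.221 between anti-PD-1 and the others, so the numbers were not taken as a pairing. Over the named intervals and their alternatives, 1137 values stayed the same, 197 lost the threshold, 25 gained it and 79 moved. For intervals past the threshold in the main fit, same means that sign and threshold were kept, and 0 of them reversed. For the others, same means a move of at most the within-group SD, moved a larger one, and the sign was not checked. A slide block was not run, since there was 1 slide. Signal over background limits the dim intervals, where the lowest level still detected was -3.82 to -4.93 by array.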

Other observations

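Long noncoding RNAs with gene names were measured on the same arrays by other probes, 45 of 64 listed passing the filter. In the combination 14 were lower and 2 higher by at least 2-fold after adjustment in limma over all tested probes, where 7.47% of all tested probes were lower and 5.08% higher, and the median of the list was -0.63. Among the Snhg genes on the list, which host small nucleolar RNAs, the largest falls were Snhg1 at -1.83, Snhg15 at -1.50, Snhg6 at -1.50, Snhg12 at -1.47 and Snhg8 at -1.41. Snhg5, Snhg10, Snhg20 and Snhg3 passed the adjusted p with changes under 2-fold (-0.71, -0.81, -0.91 and -0.99), and Snhg4 and Snhg18 did not pass (-0.26 and -0.41). Gas5, another such host, read 7.73 and 7.56 in vehicle, 6.90 and 7.28 in TP-16, 7.25 and 7.27 in anti-PD-1 and 6.73 and 6.22 in the combination, and fell by 1.17. Rpph1 and Rmrp, the RNA parts of RNase P and RNase MRP, fell by 2.56 and 2.24. On the quantile scale Gas5 changed by -0.61 and Snhg8 by -0.86.

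Those higher by at least 2-fold were H19, an imprinted RNA expressed from the maternal chromosome, and Peg13, an imprinted RNA expressed from the paternal one, while Rian rose by less (0.65, limma adjusted p = 0.0451). The probes of Tug1 disagreed, one at 0.68 ± 0.12 (limma adjusted p = 0.0149) and the other at -0.12 ± 0.16 (0.590). H19 read -0.09 and 0.67 in vehicle, 0.93 and 0.44 in TP-16, 1.40 and 0.95 in anti-PD-1 and 2.52 and 2.85 in the combination, a rise of 2.40 ± 0.32 (limma adjusted p = 0.0102). Both combination arrays were above all others. Peg13 rose by 1.33 ± 0.24 (limma adjusted p = 0.0144).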
